A study of Mus musculus with 8 samples.

Results

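The genes described here encode the scaffold proteins under the receptors of excitatory synapses: the Dlg proteins, the Homer proteins and the Shank proteins. Spots were taken by gene symbol, from Dlg1 to Dlg4, Homer1 to Homer3 and Shank1 to Shank3. Of these 10 genes, 5 carried a named spot: Dlg1 (spot 2859), Dlg2 (spots 5419 and 13737), Dlg3 (spot 17833), Homer1 (spot 6832) and Shank3 (spot 18239). They came to 6 of the 12131 named spots, which stood for 8653 genes, among 20794 spots in all. The Homer and Shank families were thus read through 1 spot each, and agreement within a family could be examined for Dlg only.

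The study asked how the brain transcriptome of ADAR2 mutants differs from that of wildtype mice. The 4 mutant animals were males aged 19 weeks that lacked ADAR2, an adenosine deaminase that edits RNA, on both alleles and carried on both alleles a GluR-B gene coding for the arginine form of that AMPA receptor subunit. Every mutant thus shared both alterations. The comparison RNA was a pool of wildtype male brains of the same age, 4 mice in the series' design and another number in the labelling protocol. Each mutant brain was hybridised to a pair of 2-colour cDNA arrays, once with its RNA in Cy5 and once in Cy3, for 8 arrays in all. The pool is 1 control sample, so the spread between wildtype mice did not enter any test, and GluR-B R/R mice with intact ADAR2 were not analysed here. Whole brain was used, so fewer cells of a type and less RNA per cell cannot be told apart.

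Beneath an excitatory synapse, Dlg proteins bind the tails of NMDA receptors and of AMPA receptor partner proteins through their PDZ domains. Dlgap proteins join Dlg to Shank, and Shank in turn binds Homer, whose EVH1 domain holds group I metabotropic glutamate receptors and inositol trisphosphate receptors. Homer1 also makes a short form that lacks the coiled coil and is induced as an immediate early gene by neuronal activity. Dlg1 (SAP97) is best known for the traffic of AMPA receptors, Dlg2 (PSD-93) and Dlg3 (SAP102) for anchoring and delivering NMDA receptors, and Shank3 as a master scaffold whose loss alters glutamatergic synapses. The arrays name genes and not transcript forms, so the long and short forms of Homer1 were not told apart.

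The deposited values are log2 ratios of the channels, and the sources used here do not say which channel is the numerator. The direction of any difference between mutant and wildtype is therefore not settled, and values are called positive or negative only. Each array's median over all spots was subtracted, so 0 stands for the array's median spot. The average of a mouse's 2 arrays, called the mean ratio, compares mutant with pool provided that the numerator was the same RNA on each of the 8 arrays. The swap component takes a mouse's Cy5 array, subtracts its Cy3 array and divides by 2. It compares them provided instead that the numerator was one fixed dye. All pairs of arrays, swapped or not, correlated positively over 18797 spots. The coefficients were 0.171 to 0.430 for pairs that shared the Cy5 orientation or were swapped and 0.459 to 0.680 between the arrays with the mutant in Cy3. Arrays held 20211 to 20559 usable values, with deposited medians of −0.57 to −0.0045. The standard deviation over all spots was 0.81 to 0.85 on arrays with the mutant in Cy5 and 1.04 to 1.32 with it in Cy3. Of the 3 spots named Adarb1, the gene of ADAR2, 2 had a negative swap component past the threshold (−1.23, adjusted p = 0.0383, and −1.33, adjusted p = 0.0424). The third had −0.10 (adjusted p = 0.628). Over all spots 7.84% passed on the swap component, and 0 did as deposited or with any 1 mouse left out. On the mean ratio 1 of the 3 Adarb1 spots passed, at 0.70 (adjusted p = 0.0297), where 30.4% of all spots did. What part of the gene these spots cover was not examined, so they leave the numerator unsettled.

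A spot's name rests on a shift found from the values: the annotation's number plus 11 gives the spot. At that shift the pair of spots of a gene correlated at a Spearman's rho of 0.255 over 2543 genes, against −0.0102 at equal numbers and at most 0.0798 at any other of 201 shifts. Within 400 spots of each scaffold spot the coefficient at this shift was 0.278 to 0.358, and the next best shift reached 0.151 to 0.232. These correlations run across genes, which are not independent replicates, and are given as a description.

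On the mean ratio, Dlg1 and Homer1 were positive, both Dlg2 spots were negative, and Dlg3 and Shank3 did not pass the test. In limma's moderated test over the 4 mice, with Benjamini-Hochberg adjustment over 20595 spots and a threshold of 0.05, 4 of the 6 spots passed, against 30.4% of all spots tested. In each direction 2 of the 6 passed, where 17.0% of all spots were called positive and 13.3% negative. The median over the 6 spots was 0.18, beside −0.09 over all spots. On the swap component none of the 5 spots with values on all 8 arrays passed, against 7.84% of all such spots. With 4 mice, the number of animals limits the precision of every value.

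**Figure D1:**
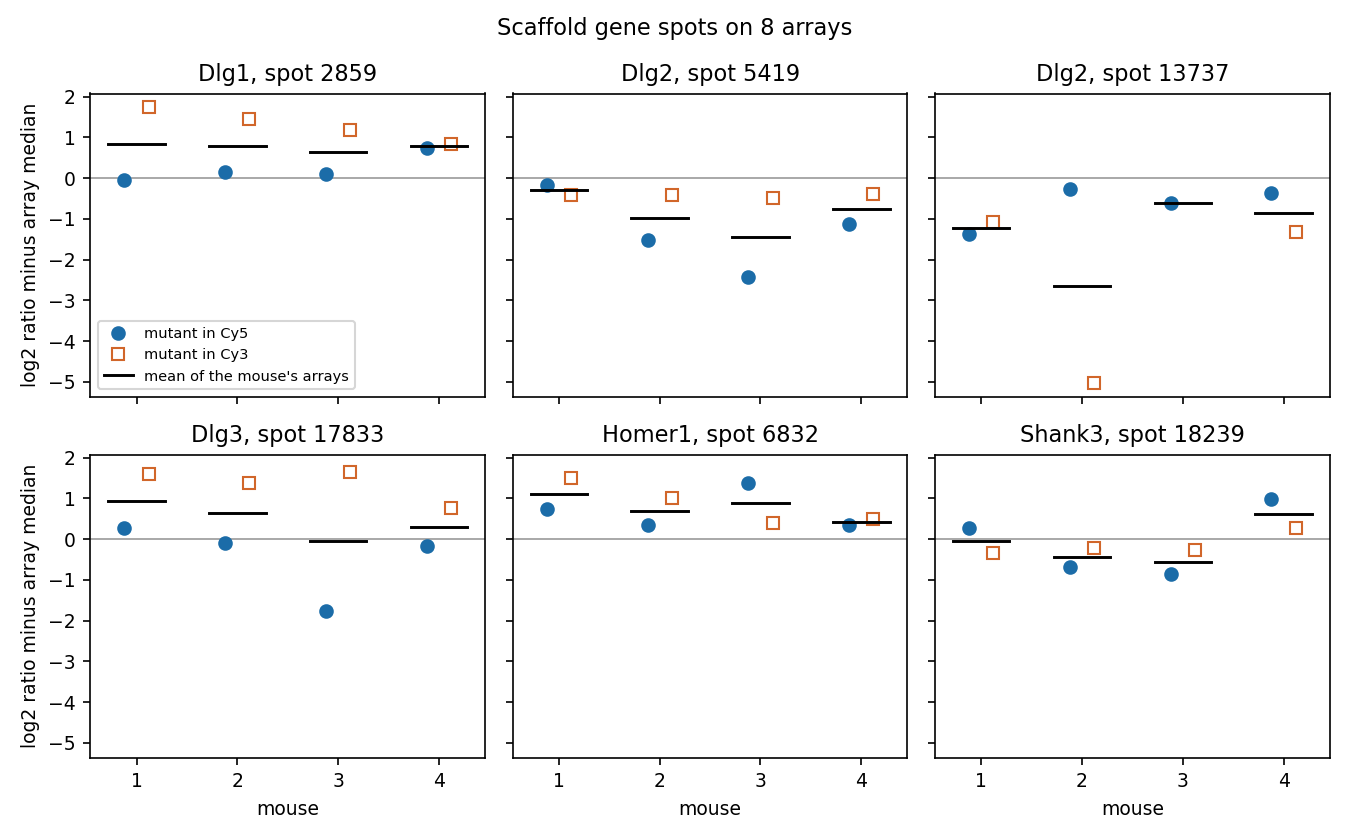
Log2 ratio minus the array median (vertical axis) of the 6 scaffold gene spots for each of 4 mice (horizontal axis). Filled circles are arrays with the mutant in Cy5, open squares arrays with the mutant in Cy3, and bars the mean of a mouse's arrays. Dlg2 lies below 0 on every array with a value and Homer1 above 0 on all 8, while Dlg3 splits by orientation.

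The Dlg spots did not share one sign. Dlg1 read −0.05, 0.14, 0.09 and 0.73 in mice 1 to 4 with the mutant in Cy5, and 1.74, 1.45, 1.19 and 0.83 with the mutant in Cy3. The orientations did not overlap, and in each of the 4 mice the Cy3 array was the higher. This was not particular to Dlg1: the 1992 spots with a mean ratio at or above its own had a median swap component of −0.54. Most of those spots thus also averaged higher on the Cy3 arrays. How many of all spots had orientations without overlap was not counted. Averaged within mice, the values lay close together, at 0.84, 0.79, 0.64 and 0.78. The mean ratio of Dlg1 was 0.76 ± 0.13 (moderated SE, n = 4 mice; 95% interval 0.45 to 1.08; adjusted p = 0.0121). Its swap component was −0.54 ± 0.16, short of the threshold (adjusted p = 0.0916). The mean of Dlg1 over the Cy3 arrays passed on its own (1.30, adjusted p = 0.00927), and that over the Cy5 arrays did not (0.23, adjusted p = 0.489).

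Both spots of Dlg2 were negative on every array that gave a value, 8 of 8 and 7 of 7. One sign throughout was not particular to these spots: outside the scaffold genes, Ppp1r9a was negative and Dlgap3 positive on 8 of 8. The share of all spots with one sign on every array was not counted. Spot 5419 read −0.17, −1.53, −2.42 and −1.12 with the mutant in Cy5, and −0.42, −0.41, −0.49 and −0.38 with the mutant in Cy3. The Cy3 arrays lay within a narrow band while the Cy5 arrays spread widely around them, from mouse 1 nearest 0 to mouse 3 farthest from it. Its mean ratio was −0.87 ± 0.21 (moderated SE, n = 4; 95% interval −1.40 to −0.33; adjusted p = 0.0324), from mouse values of −0.30, −0.97, −1.46 and −0.75. Its swap component was −0.44 ± 0.19 (adjusted p = 0.181).

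Spot 13737 of Dlg2 read −1.38, −0.28, −0.62 and −0.38 with the mutant in Cy5. With the mutant in Cy3 it read −1.09, −5.03 and −1.34 in mice 1, 2 and 4, and mouse 3 had no usable value. The array of mouse 2 stands far below the rest, and mouse 3 rests on 1 array. The mean ratio was −1.34 ± 0.35 (moderated SE, n = 4; 95% interval −2.22 to −0.46; adjusted p = 0.0383). With the low value of mouse 2 treated as missing, an alternative chosen after seeing the data, the mean ratio was −0.75. The swap component of this spot could be had in 3 mice, as −0.15, 2.37 and 0.48. Fitted with limma over those mice alone, it was 0.90 ± 0.50 (moderated SE, n = 3; adjusted p = 0.310). The 2 Dlg2 spots thus shared a sign but not the order of the mice: mouse 1 was the nearest to 0 at spot 5419 and among the farther at spot 13737. Their mean ratios differed by 0.47, with spot 5419 above in 3 of 4 mice (exact sign-flip test, p = 0.375). Averaged into 1 value for the gene, Dlg2 had a mean ratio of −1.10 ± 0.21 (moderated SE; adjusted p = 0.0153 over 8605 genes, of which 29.1% were called).

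Dlg3 read 0.28, −0.10, −1.75 and −0.17 with the mutant in Cy5, and 1.59, 1.38, 1.65 and 0.77 with the mutant in Cy3. Every Cy3 array lay above every Cy5 array, and 3 of the 4 Cy5 values were negative. As for Dlg1, the share of all spots with such a separation was not counted. The 4332 spots with a mean ratio at or above that of Dlg3 had a median swap component of −0.42, so most also averaged higher on Cy3. The mean ratio, 0.46 ± 0.20 (moderated SE, n = 4; 95% interval −0.04 to 0.95; adjusted p = 0.133), did not pass. The swap component was the largest in size of the 5 tested, at −0.89 ± 0.22, and lay just outside the threshold (adjusted p = 0.0599). Only 0.617% of all spots had a more negative one. With values at ratios of small whole numbers, typical of weak spots, treated as missing in the whole table, no value of Dlg3 was lost and its swap component passed (−0.90, adjusted p = 0.0388), as did 2149 of the 12290 spots left. In the other alternatives its adjusted p was 0.0550 to 0.208, and none passed.

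Differences between Dlg spots were set against the spread over mice with an exact two-sided sign-flip test on the 6 pairs, which with 4 mice cannot give a p below 0.125. Dlg1 exceeded Dlg2 in 4 of 4 mice, by 1.63 at spot 5419 and by 2.11 at spot 13737 (both exact p = 0.125, adjusted p = 0.1875). Dlg3 also exceeded both Dlg2 spots in 4 of 4 mice, with Dlg2 minus Dlg3 at −1.32 and −1.80 and the same p. Dlg1 and Dlg3 differed by 0.31, with Dlg1 above in 3 of 4 mice (exact p = 0.25, adjusted p = 0.3). Both Dlg2 spots thus lay below Dlg1 and Dlg3 in every mouse, and the sign-flip test used here cannot pass the threshold with 4 mice.

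Homer1 was positive on 8 of 8 arrays, as were spots of other genes such as Dlgap3, and the share among all spots was not counted. It read 0.74, 0.36, 1.39 and 0.34 with the mutant in Cy5, and 1.50, 1.01, 0.39 and 0.49 with the mutant in Cy3. The orientations overlapped, and the higher array of a mouse was the Cy3 one in mice 1, 2 and 4 and the Cy5 one in mouse 3. The mean ratio was 0.78 ± 0.17 (moderated SE, n = 4; 95% interval 0.37 to 1.19; adjusted p = 0.0213), from mouse values of 1.12, 0.69, 0.89 and 0.42. The swap component was −0.07 ± 0.18 (adjusted p = 0.809), and its sign changed to positive without the median subtraction (0.035). Homer1 was thus the scaffold spot with the most equal means in the 2 orientations among the 3 positive ones, 0.71 in Cy5 and 0.85 in Cy3.

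Shank3 had mice on both sides of 0. It read 0.28, −0.68, −0.86 and 0.98 with the mutant in Cy5, and −0.35, −0.21, −0.27 and 0.26 with the mutant in Cy3. Both arrays of mouse 4 were positive and both arrays of mice 2 and 3 negative. The mean ratio had a standard deviation of 0.53 between mice, while the orientation means were close, at −0.07 in Cy5 and −0.14 in Cy3. The mean ratio was −0.10 ± 0.23 (moderated SE, n = 4; adjusted p = 0.751). The 95% interval, −0.68 to 0.47, leaves room for a difference in either direction. The swap component was 0.04 ± 0.16 (adjusted p = 0.900).

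**Figure D2:**
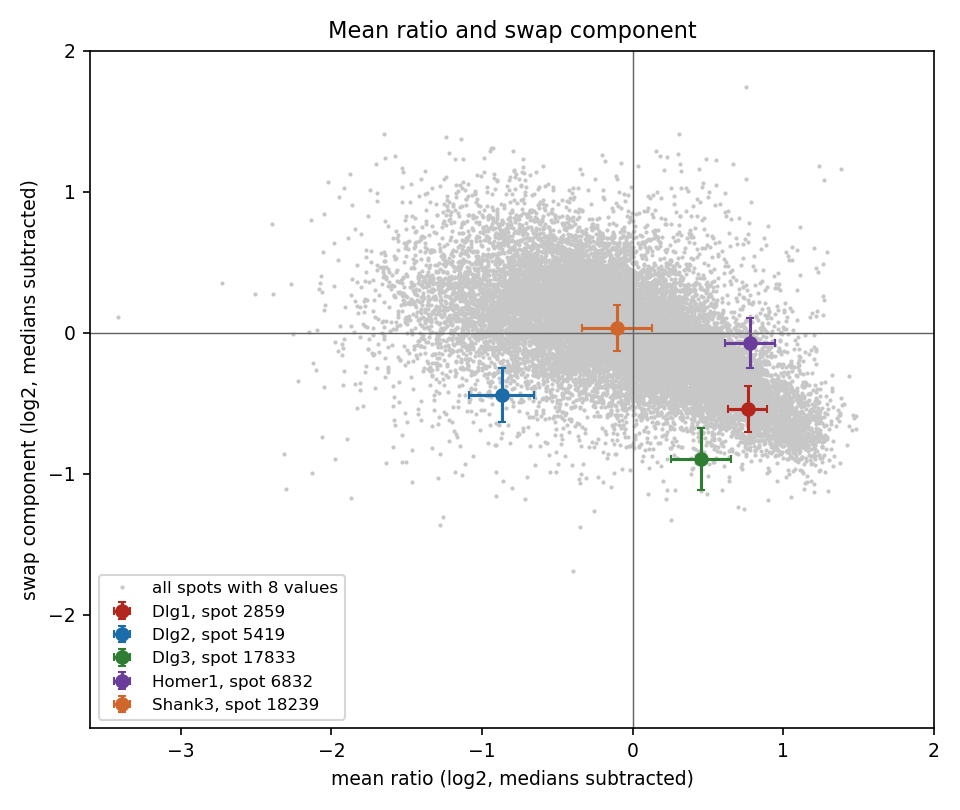
Swap component (vertical axis, log2) against mean ratio (horizontal axis, log2) for the 18797 spots with 8 values (grey) and the 5 scaffold spots among them, with moderated standard errors as bars. Dlg1 lies inside the main cloud, Homer1 and Dlg2 spot 5419 on opposite edges of it, and Dlg3 at its lower edge.

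Over all spots the mean ratio and the swap component ran opposite to each other. Both are made from the same arrays, so this slope follows by arithmetic from the wider spread of the Cy3 arrays. The scaffold spots took different places in that cloud. Dlg1 lay in its middle: of the 1992 other spots with a mean ratio at or above its own, 51.4% had a swap component at or below that of Dlg1. Homer1 lay at the upper edge, as only 6.79% of the 1901 spots with a mean ratio at or above its own had a swap component at or above it. Dlg3 lay at the lower edge, with 1.41% of 4332 such spots at or below its swap component. Dlg2 spot 5419 was negative on both measures. Of 1917 spots with a mean ratio at or below its own, 4.33% had a swap component at or below its −0.44. How many of them were merely negative on both measures was not counted. Shank3 lay close to the centre.

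Taken by orientation, the 4 arrays with the mutant in Cy5 gave no call for any of the 6 spots by limma, nor for any of 19898 spots, of which 4748 had an unadjusted p below 0.05. Their means were 0.23 for Dlg1, −1.31 and −0.66 for the Dlg2 spots, −0.44 for Dlg3, 0.71 for Homer1 and −0.07 for Shank3. On the arrays with the mutant in Cy3, 3 of the 5 spots tested passed, beside 34.3% of all spots: Dlg1, Dlg3 (1.35, adjusted p = 0.0088) and Homer1 (0.85, adjusted p = 0.0465). Dlg2 spot 5419 (−0.43, adjusted p = 0.101) and Shank3 (−0.14, adjusted p = 0.599) did not. As deposited, without the medians subtracted, the Cy3 mean of Homer1 missed the threshold (0.58, adjusted p = 0.0693) and that of Dlg2 spot 5419 passed it (−0.70, adjusted p = 0.0355), where 35.3% of all spots passed.

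Centring moved all spots together and left the 4 calls on the mean ratio in place, where 29.6% of all spots were called as deposited. As deposited, the mean ratios were 0.60 for Dlg1 (adjusted p = 0.0259), −1.03 and −1.49 for Dlg2 (adjusted p = 0.0186 and 0.0359) and 0.62 for Homer1 (adjusted p = 0.0322). Those of Dlg3 (0.30) and Shank3 (−0.27) missed the threshold there too. The median of all spots was −0.25 as deposited, and the share of calls that were positive went from 56.1% to 37.4%. Without mouse 2, none of the 6 spots passed, where 2545 of all 20629 spots did, against 6256 of 20595 with every mouse. The scaffold count was 1 without mouse 3 (all spots 2483 of 20647). It was 2 without mouse 1 (3931 of 20652) or mouse 4 (3216 of 20631). With medians of runs of 48 neighbouring spots subtracted instead, Dlg1 and Homer1 passed and neither Dlg2 spot did (−0.84, adjusted p = 0.0737, and −0.92, adjusted p = 0.112). Calls among all spots were 4414 of 20595 there.

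The promoters of Homer1 and Dlg2, the scaffold genes whose spots kept one sign on every array with a value, are shown next as a description. The letters are from RefSeq on mouse build GRCm38.p6, the 250 bases before an annotated start, 5′ to 3′, with TGACGT in capitals, the core of the cAMP response element that the activity-regulated factor CREB binds. The Homer1 window, 1 of 2 for that gene, lies at chr13:93303507-93303756 on the plus strand, and the Dlg2 window, 1 of 3 for that gene, at chr7:91090536-91090785 on the plus strand.
Homer1: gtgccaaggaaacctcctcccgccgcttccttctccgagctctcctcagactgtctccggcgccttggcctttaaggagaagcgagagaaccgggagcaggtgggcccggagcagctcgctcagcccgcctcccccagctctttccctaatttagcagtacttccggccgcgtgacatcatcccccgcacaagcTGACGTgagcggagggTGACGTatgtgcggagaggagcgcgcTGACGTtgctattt
Dlg2: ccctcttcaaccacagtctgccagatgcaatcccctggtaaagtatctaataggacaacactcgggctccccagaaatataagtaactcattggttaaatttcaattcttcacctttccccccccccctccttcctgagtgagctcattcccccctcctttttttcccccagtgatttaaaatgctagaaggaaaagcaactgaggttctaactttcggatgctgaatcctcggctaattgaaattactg
This Homer1 window holds TGACGT 3 times, starting 56, 40 and 14 bases before the start (positions −56, −40 and −14). Searched on both strands as TGACGT and ACGTCA, at least 1 match was found in 6.47% of 32851 such windows, at least 2 in 0.387% and at least 3 in 3 windows. TGACGT was 1 of 3 motifs counted. CCAAT was found at least once in 33.8% of the windows and GGGCGG in 32.7%, both also searched with their reverse complements, ATTGG and CCGCCC. The printed Dlg2 window held CCAAT 1 time, as ATTGG on the strand shown, and no GGGCGG, and the printed Homer1 window held neither. None of the other 11 windows of the 5 scaffold genes held a match to TGACGT, the second Homer1 window among them, from a total of 12. A match is a description of the letters and does not show that a factor binds there in these brains. Any link between these letters and the ratios was not tested.

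The spots most like each scaffold spot over the 8 arrays were found by the root mean square difference among 11100 named spots with 8 values. For Dlg1 they were Hspa5, the chaperone BiP of the endoplasmic reticulum (0.168), Nfix, a nuclear factor I transcription factor (0.169), and Slc22a12, the urate transporter URAT1 (0.170), where the median named spot was at 1.09. For Homer1 they were Cypt4 (0.272), Msl1 (0.290) and Rps15, a protein of the small ribosomal subunit (0.294). Dlg2 spot 5419 was nearest to Ubxn10 (0.309), Mybl2 (0.389) and Alg9, a mannosyltransferase of N-glycan assembly (0.423). Dlg3 was nearest to Msmo1, a sterol methyl oxidase (0.332), Tceal9 (0.368) and Nrip3 (0.369), and Shank3 to Hivep1 (0.299), Cyria (0.328) and Slc27a2 (0.333). No scaffold gene was among the 3 spots nearest to another.

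The Dlgap proteins, which bind the guanylate kinase domain of Dlg, had 11 spots for 4 genes, and spots of 1 gene differed in sign for Dlgap1, Dlgap2 and Dlgap4. On the mean ratio 5 of the 11 passed, each of them positive, where 17.0% of all spots were called positive and 13.3% negative, and the median was 0.53. Dlgap1 passed at 3 spots (1.07, 0.98 and 0.88) and not at the other two, which read −0.16 and −0.31. Dlgap3 passed at its single spot (0.73, adjusted p = 0.0213), and Dlgap4 at 1 of 2 (0.89, adjusted p = 0.0157, against −0.28). None of the Dlgap2 spots passed on the mean ratio, with values of −0.79, 0.44 and 0.53. Spot 11669 of Dlgap2 averaged 0.49 with the mutant in Cy5 and −2.08 with it in Cy3. As deposited, 5 Dlgap spots were called positive and 2 negative. There 29.6% of all spots were called, 2286 of 20595 positive and 3819 negative.

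**Figure D3:**
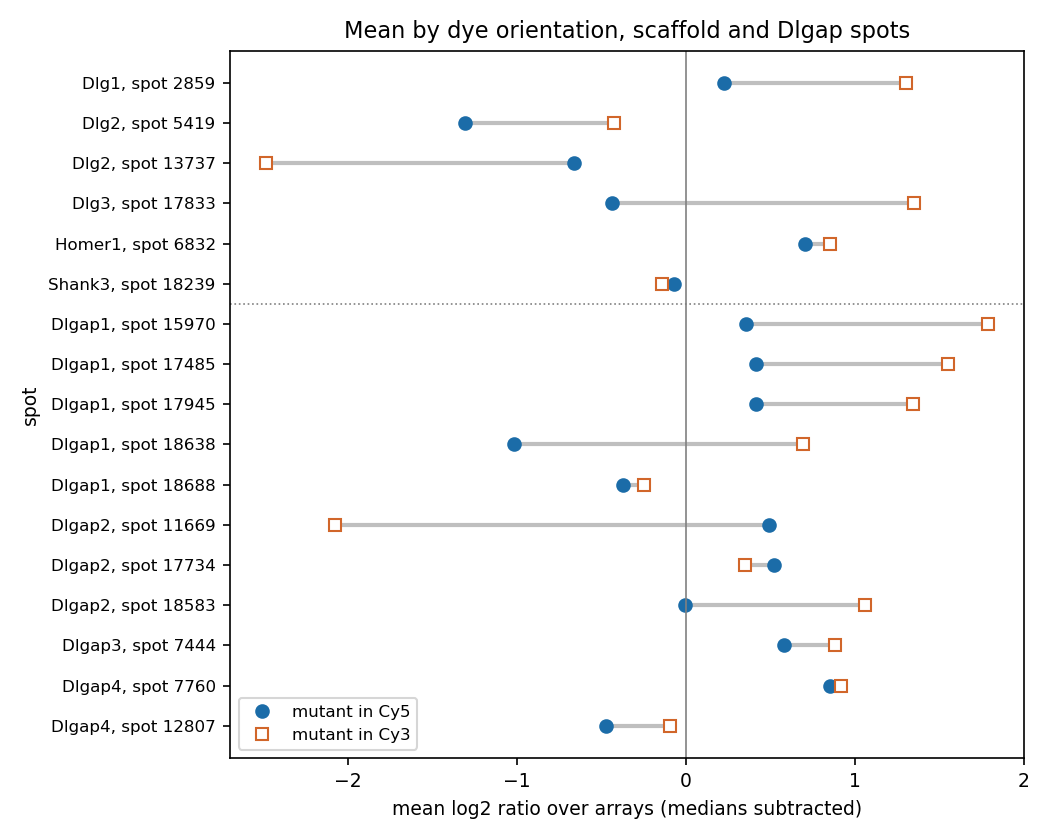
Mean log2 ratio, medians subtracted (horizontal axis), over the arrays with the mutant in Cy5 (filled circles) and in Cy3 (open squares) for each scaffold spot (above the dotted line) and each Dlgap spot (below it). Both Dlg2 spots keep both means below 0, while Dlg3, Dlgap1 spot 18638 and Dlgap2 spots 11669 and 18583 have means of opposite sign, the last with a Cy5 mean of −0.0076.

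The other genes of the postsynaptic density are set here beside all spots, of which 30.4% were called, 17.0% positive and 13.3% negative. Among 44 tested spots of the remaining scaffolds and adaptors, Dlgap included (26 of 44 genes present), 15 were positive and 1 negative (36.4% called, median 0.32). The positive ones were led by Dynll2, a dynein light chain, at spot 17640 (1.19, adjusted p = 0.00924) and Dbnl, an actin-binding adaptor (1.17), and the negative one was another of the 5 Dynll2 spots, 13985 (−1.66, adjusted p = 0.0126). Averaged over its spots, Dynll2 was at 0.24 (adjusted p = 0.226), and Dlgap1 at 0.49 (adjusted p = 0.0926). Dynll1, the other dynein light chain, stood at 1.10. Among 21 spots of glutamate receptors and adhesion proteins, 5 were positive and 1 negative (28.6% called, a share close to that of all spots; median 0.38). The AMPA receptor subunit gene Gria1 was at 0.92, the NMDA receptor subunit gene Grin3b at 0.86 and the kainate receptor subunit gene Grik4 at −1.45. The netrin-G ligand gene Lrrc4c was at 0.83 at spot 18612 and −0.22 at spot 15801, and its average did not pass (0.31, adjusted p = 0.106). Spot 18612 also missed the threshold with runs of 48 spots centred (0.47, adjusted p = 0.0617) and without mouse 3 or mouse 4 (adjusted p = 0.0554 and 0.0516). Cacng4, an AMPA receptor auxiliary subunit, was at 0.60 at spot 15990 (adjusted p = 0.0255) and missed the threshold as deposited (0.44, adjusted p = 0.0659) and over its 4 spots (0.35, adjusted p = 0.164). Among 35 spots of signalling proteins, 17 were positive and 4 negative (60.0% called, median 0.53). The small GTPases Rac1 (1.19) and Cdc42 (1.06), the kinase Camk2a (1.15) and Rgs4 (1.05) were among the positive ones. Camk2g at spot 12633 (−1.52), the spine protein neurabin, Ppp1r9a (−1.35), and Arhgef7 at spot 12459 (−0.76) were negative. The other Camk2g spot, 1376, was called positive (0.67, adjusted p = 0.0194), and the gene's average did not pass (−0.43, adjusted p = 0.0572). The other Arhgef7 spot, 1599, was at 0.43 (adjusted p = 0.0516), and that gene's average did not pass either (−0.16, adjusted p = 0.326). As deposited, the 3 lists had 12 positive and 5 negative, 3 and 2, and 14 and 5 calls. There 29.6% of all spots were called, 2286 of 20595 positive and 3819 negative. On the swap component the lists had 1 positive and 9 negative, 0 and 1, and 0 and 8 calls. Among all 18797 spots with a swap component, 265 were called positive and 1208 negative.

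**Figure D4:**
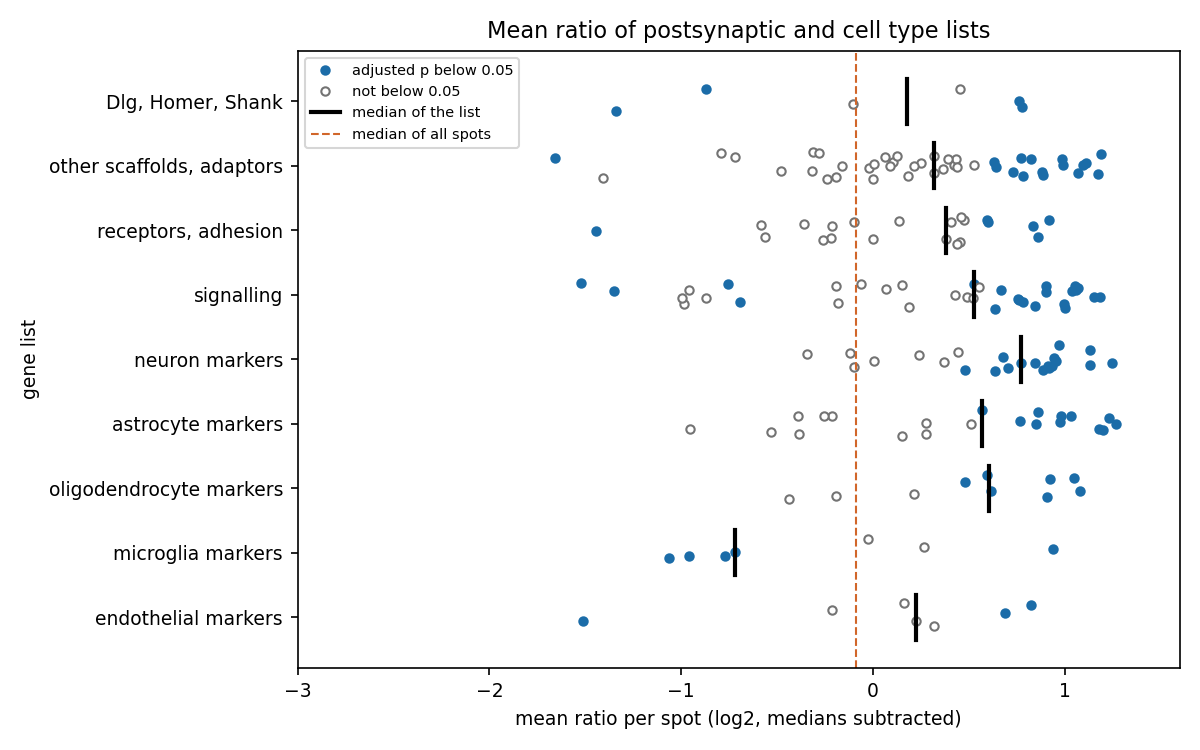
Mean ratio per spot (horizontal axis, log2, medians subtracted) for the Dlg, Homer and Shank spots, 3 other postsynaptic lists and 5 cell type marker lists (rows). Filled points have an adjusted p below 0.05, black bars are list medians, and the dashed line is the median of all spots, −0.09. The Dlg2 spots lie left of that line, where few called spots of the postsynaptic lists lie.

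Markers of the cell types in whole brain are set beside the same shares of all spots, 17.0% called positive and 13.3% negative. Neuron markers were positive past the threshold at 16 of 23 spots and negative at none (median 0.77), and astrocyte markers at 11 of 21 and none (median 0.57). Oligodendrocyte markers were positive at 7 of 10 spots and negative at none (median 0.61), microglia markers at 1 and 4 of 7 (median −0.72), and endothelial markers at 2 and 1 of 7 (median 0.23). As deposited, the positive and negative calls were 13 and 0 for neurons, 10 and 1 for astrocytes, 4 and 0 for oligodendrocytes, 1 and 4 for microglia and 1 and 1 for endothelium. Among all 20595 spots tested as deposited, 2286 were called positive and 3819 negative. On the mean ratio Dlg1 and Homer1 thus shared the sign of all marker medians except microglia, and both Dlg2 spots that of microglia. Swap medians were −0.47, −0.46, −0.41, −0.02 and −0.29 for neurons, astrocytes, oligodendrocytes, microglia and endothelium. Negative swap calls were 5 of 22, 4 of 20 and 4 of 10 for the first 3, beside 1208 of all 18797 spots. On the swap component Dlg1 (−0.54), Homer1 (−0.07) and Dlg2 spot 5419 (−0.44) were also negative, and none passed. The part of cell composition, dye and spot brightness in the values of the scaffold genes was not tested. Ratios hold no levels, so whether a marker was well above background could not be read from them.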

How the data were processed

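Per the labels' protocols, brain total RNA was isolated with column kits, reverse transcribed and labelled indirectly with Cy3 or Cy5. The values deposited by the authors are log2 ratios of the channels: the log2 scale was inferred from weak spots that recur at ratios of whole numbers up to 10, each array carries an additive constant, and numerator, background correction and normalization are not stated in the labels. Empty values and a code for a ratio of 100000 were treated as missing. Each array's median was subtracted, a mouse's 2 arrays were combined into the mean ratio and the swap component, and these were fitted over 4 mice with limma 3.58.1 in R 4.3.3 (lmFit, eBayes; spots with a value in all 4 mice; Benjamini-Hochberg over all spots; threshold 0.05). The fit was tested on simulated data. The design assumed arrays of 1 mouse to be technical repeats, so n is 4. Names follow the annotation's number plus 11, up to annotation number 20000. All 12771 annotation rows matched RefSeq gene IDs. The members and gene lists were chosen with earlier results of these data known. Named genes were every scaffold spot, the 3 named spots nearest to each, and up to 4 genes per direction and list with the largest mean ratio among called spots of one sign on 8 arrays. Alternatives changed the centring, scaling, local medians, weak values, missing values, orientation, mice, naming and averaging of spots.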

Additional observations from a re-analysis of the deposited data

How the results depend on the processing

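The count of scaffold spots called on the mean ratio, 4, was also 4 as deposited, with arrays scaled to one median absolute deviation, and with weak values missing. Calls among all spots were 6256 of 20595 in the main fit and 6105 of 20595 as deposited. They were 5007 of 20595 with scaled arrays and 5890 of 19796 with weak values missing. The scaffold count was 3 with all 8 values required (Dlg2 spot 13737 was not tested there), 3 on the Cy3 arrays alone (Dlg1, Dlg3 and Homer1), 3 with names at equal numbers, which are other spots, and 3 genes with spots averaged (Dlg1, Dlg2 and Homer1). Calls among all were 6527 of 18797 with 8 values, 6625 of 19308 on Cy3 arrays and 2505 of 8605 genes. The scaffold count was 2 with runs of 48 spots centred (all spots 4414 of 20595), and 0 with the Cy5 arrays alone, where all spots gave 0 calls by limma (4748 at an unadjusted p below 0.05). Leaving out 1 mouse gave 0 to 2 scaffold calls and 2483 to 3931 calls among all spots, against 6256. Dlg1 was lost without mouse 2 (adjusted p = 0.0553), Homer1 without mice 1, 2 and 3 (0.0608, 0.0712 and 0.0764), Dlg2 spot 5419 without mice 2, 3 and 4 (0.107, 0.0888 and 0.0821), and Dlg2 spot 13737 without any of the 4 (0.0542 to 0.0877).

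On the swap component, 1 scaffold spot passed with weak values missing (Dlg3) and 1 with names at equal numbers, against 0. The 1473 calls among all spots became 0 as deposited, with scaled arrays, with runs of 48 centred and without each mouse in turn. At an unadjusted p below 0.05 these fits had 5785, 3815, 4958 and 4106 to 5417 spots.

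Some signs turned. The mean ratio of Dlg3 was −0.0072 with runs of 48 centred and −0.44 on Cy5 arrays, that of Shank3 was 0.0078 and 0.048 without mice 2 and 3 (range without 1 mouse −0.35 to 0.048), and Dynll2 was 0.24 with its spots averaged. The swap component of Dlg2 was 0.11 with its spots averaged. That of Homer1 was 0.035 as deposited, 0.17 with scaled arrays, 0.0043 with runs of 48 centred, and −0.26 to 0.031 without 1 mouse, positive without mouse 1 or 2. That of Shank3 was −0.022 with scaled arrays and −0.072 to 0.15 without 1 mouse, negative without mouse 1 or 4. The cause was not tested. Intensities were not used here, so brightness over background sets no limit that could be read.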
